A study of Drosophila melanogaster with 2 samples.

Results

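Of the 568 peaks that the conservative list of wor-eGFP ChIP-seq peaks placed on the X chromosome, 207 had their summit within 500 bp of an annotated transcript start and are described here as X promoter peaks. Peaks overlapping a peak of higher signal had been dropped, which left 2768 peaks on the 6 arms analysed, 956 of them promoter peaks of the autosomes (2L, 2R, 3L, 3R and 4). The material was whole Drosophila melanogaster embryos aged 0 to 18 h of a transgenic strain, wor-GFP, that expresses Worniu fused to enhanced GFP, and the chromatin was precipitated with an antibody against GFP. Both biological replicates (2 in all) formed 1 group, with no second genotype or treatment. The libraries therefore held chromatin of all embryonic tissues, and the sex of the embryos was, per the labels, not collected. The antibody entry of the labels reads wor, while their description names an anti-GFP antibody. No control library is analysed here, and the read depth of the libraries is unknown.

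Worniu belongs to the Snail family of zinc finger proteins, which bind E-box sequences, and is made in neuroblasts, from which the nervous system of the embryo arises. The X chromosome of the fly is present as a single copy in males, where the dosage compensation complex raises its transcription. Gene starts can lie alone or back to back on opposite strands, in which case a single stretch of DNA serves a divergent pair of genes.

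The summit windows of the 20 strongest X promoter peaks held 14.9 to 42.6% G+C, and 7 windows are printed as examples. The first 6 are the strongest members whose 101 bp window overlapped no annotated exon, which applied to 151 of the 207. The window of TH1, chosen after its values were seen, is that of a peak with starts on both strands within 500 bp. Sequences are the plus strand of RefSeq Release 6 (dm6), and capitals mark the longest uninterrupted run of A and T.
ph-p, chrX:2137295-2137395: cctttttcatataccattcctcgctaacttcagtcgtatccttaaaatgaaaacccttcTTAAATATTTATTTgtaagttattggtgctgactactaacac
Gapdh2, chrX:15867932-15868032: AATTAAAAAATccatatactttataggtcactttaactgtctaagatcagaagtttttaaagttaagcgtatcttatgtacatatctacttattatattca
Atf3, chrX:1275437-1275537: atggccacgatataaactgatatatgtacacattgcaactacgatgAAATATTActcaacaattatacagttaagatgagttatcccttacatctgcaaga
asRNA:CR44429, chrX:15298444-15298544: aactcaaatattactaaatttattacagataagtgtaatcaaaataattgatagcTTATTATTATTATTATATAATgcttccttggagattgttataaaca
elav, chrX:523437-523537: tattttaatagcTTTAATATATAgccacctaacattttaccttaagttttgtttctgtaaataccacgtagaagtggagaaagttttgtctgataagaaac
Ucp4A, chrX:17844796-17844896: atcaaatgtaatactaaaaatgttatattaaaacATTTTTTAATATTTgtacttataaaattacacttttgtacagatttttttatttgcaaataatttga
TH1, chrX:16391498-16391598: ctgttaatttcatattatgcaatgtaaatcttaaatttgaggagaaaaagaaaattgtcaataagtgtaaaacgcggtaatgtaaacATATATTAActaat

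Runs of A and T in these windows were 8 to 21 bp long. G+C made up 14.9% of the Ucp4A window and 19.8% of the asRNA:CR44429 window, against 32.7% in those of ph-p and Atf3. None of the 7 windows was chosen for its base composition, but exons differ from other DNA in composition, so the exon rule can shift it. The rule passed over stronger members with G+C from 19.8% (another ph-p peak) to 42.6% (MFS10).

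The X had fewer of its peaks at promoters than the autosomes, and its promoter peaks less often had starts on both strands nearby. Counted over genes, 10.1% of X genes and 10.6% of autosomal genes had a promoter peak, with a different split by gene arrangement. Divergent genes carried a peak less often on the X (13.6% against 21.2%) and genes with a start in only 1 direction carried one more often (8.70% against 6.12%). Signal and presence in both replicates were close to the autosomal values at the 500 bp limit. Males have a single X and sex was not collected, so the share of X copies in the chromatin is unknown. Its effect on the comparisons of X with autosomes was not tested, and similar values do not show equal binding per copy. P-values below come from two-sided Fisher's exact tests over the peaks or genes of 1 list, with Benjamini-Hochberg adjustment. Peaks and genes are not replicates, and with 1 group no test across embryos was possible. Intervals (95% Wilson) hold counting error and nothing else.

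Promoters held 36.4% of the X peaks (interval 32.6 to 40.5%) and 43.5% of the autosomal peaks (41.4 to 45.5%), where 42% of all peaks of the list were at a promoter. The difference passed Fisher's exact test (adjusted p = 0.00619), but not with promoters widened to 1000 bp (-5.41 points, adjusted p = 0.055). With promoters limited to 200 bp it was wider, 17.6% against 28.6% (-10.99 points, Fisher's exact test, adjusted p = 4.23e-07). Of the autosomal arms, 3L came nearest to the X with 38.9%, followed by 3R with 44.1%, 2L with 45.9% and 2R with 46.0%. Counting protein-coding genes instead, 221 of 2196 on the X had a promoter peak, a share of 10.1% (8.87 to 11.4%). On the autosomes the share was 10.6% (1250 of 11749 genes, 10.1 to 11.2%), and over all arms it was 10.5%. The share of genes did not differ between X and autosomes beyond counting error (Fisher's exact test, adjusted p = 0.786). With promoters limited to 200 bp it was lower on the X by Fisher's exact test (-1.46 points, adjusted p = 0.0418).

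A divergent promoter peak, one with starts on both strands within 500 bp of its summit, made up 45 of the 207 on the X, or 21.7% (16.7 to 27.8%). On the autosomes 378 of 956 were of this kind, or 39.5% (36.5 to 42.7%), and over all arms 36.4% were. The X share was 17.8 percentage points below the autosomal one (Fisher's exact test, adjusted p = 6.86e-06). The large autosomal arms were all above it, with 35.3% on 2R, 38.9% on 3L, 39.3% on 2L and 44.0% on 3R. The annotation itself differed less, because 610 of 2196 X genes (27.8%) and 3524 of 11749 autosomal genes were divergent, with a start that had an opposite start within 500 bp upstream. The median gap between such starts was 245 bp on the X and 241 bp on the autosomes. The summit itself lay between a minus-strand start on its left and a plus-strand start on its right in 41 of the 45 on the X and in 349 of the 378 on the autosomes. With summits limited to 200 bp from a start and divergent starts still taken within 500 bp, the difference was -17.3 points (Fisher's exact test, adjusted p = 0.00582). With both distances set to 200 bp it was -8.43 points and did not pass (Fisher's exact test, adjusted p = 0.121).

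Counted over genes, 83 of 610 divergent X genes had a promoter peak (13.6%, 11.1 to 16.6%), against 747 of 3524 on the autosomes (21.2%, 19.9 to 22.6%; Fisher's exact test, adjusted p = 1.75e-05). The summit could lie within 500 bp of any start of the gene, not only of the divergent one. Shares of divergent genes and of divergent peaks are thus different measures. Genes without an opposite start, called one-directional here, had a peak in 138 of 1586 cases on the X (8.70%, 7.41 to 10.2%) and in 503 of 8225 on the autosomes (6.12%, 5.62 to 6.65%; Fisher's exact test, adjusted p = 0.00032). Per large arm, divergent genes reached 17.6% on 2R, the lowest large autosomal arm, and 24.5% on 3L, the highest. On these arms one-directional genes ranged from 5.85% on 3L to 6.46% on 3R, below the X, and chromosome 4 had 3.28% (2 of 61 genes). A logistic model (n = 13945 genes, likelihood ratio test) gave a log2 ratio of odds ratios of -1.32 (SE 0.231, adjusted p = 2.76e-08) for divergent against one-directional genes, X against autosomes. Both genes of a pair can share 1 peak, so this p and that of the test on divergent genes are too small. These gene-level comparisons were added after the data were seen. With summits limited to 200 bp and the gene types unchanged, the one-directional difference was 0.817 points and no longer passed (Fisher's exact test, adjusted p = 0.096), while the ratio was -1.19 (n = 13945 genes, adjusted p = 0.000138). With the gene types also redefined by 200 bp, the one-directional difference was -0.941 points and the ratio -0.59 (n = 13945 genes, adjusted p = 0.131).

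**Figure D1:**
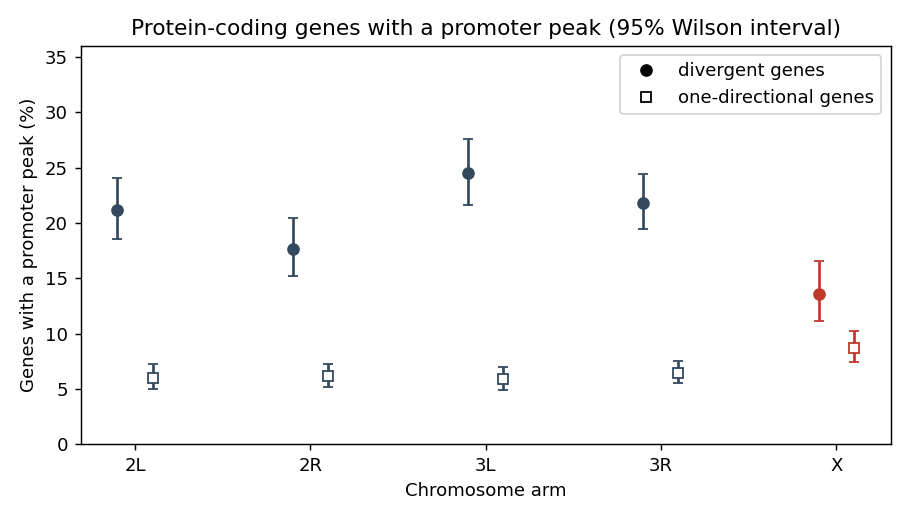
Share of protein-coding genes with a promoter peak (y axis, percent) on each large chromosome arm (x axis), for divergent genes (filled circles) and one-directional genes (open squares), with 95% Wilson intervals as bars and the X in red. On the X the circle stands at 13.6% and the square at 8.70%, while on the other arms the circles lie between 17.6% and 24.5% and the squares between 5.85% and 6.46%.

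Weaker peaks were looked at separately, in the ranked list of both replicates, where 841 X promoter peaks fell outside the conservative list. Such peaks had not passed the reproducibility filter of the conservative list, which favours absence from the replicates' own thresholded lists. In the thresholded lists of both replicates were 0 of these 841 and 1 of the 5531 autosomal ones. Summits lay upstream of the start in 48.0% on the X and 42.6% on the autosomes, against 84.1% and 83.6% in the conservative list. The median signal of the ranked peaks outside the list was 30.5. Their share at divergent starts was 14.9% on the X and 13.1% on the autosomes (Fisher's exact test, adjusted p = 0.244). Divergent genes had such a weaker peak at 39.7% on the X and 39.3% on the autosomes (Fisher's exact test, adjusted p = 0.893). One-directional genes had one less often on the X, at 31.7% against 37.7% (Fisher's exact test, adjusted p = 1.83e-05), a difference opposite in sign to that in the conservative list.

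Most divergent X promoter peaks had starts of several protein-coding genes nearby. At least 2 protein-coding genes had a start within 500 bp of the summit in 40 of the 45. The strongest of them ranked 11 among X members and lay between bves and Stt3A, a catalytic subunit of the oligosaccharyltransferase complex. Its signal, the authors' own value per peak, was 455, with 222 in replicate 1 and 235 in replicate 2. Ucp4A, a mitochondrial carrier of the uncoupling protein family, and CG8142 shared a peak of 438 (229 and 217 in the replicates). TH1, a subunit of the negative elongation factor NELF, and mei-41, the fly ATR kinase, shared 1 of 351 (194 and 163). The replicate values come from lists scaled separately, so their sizes are not to be set against each other or against the pooled value.

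Further pairs included mthl1 with SNRPG, a core protein of the spliceosomal snRNPs, at a signal of 246. Rtel1, a DNA helicase, and IntS6, an Integrator subunit, followed with 244. Fum1, a fumarase, faced ND-ASHI, a subunit of respiratory complex I, across a peak of 219. The peak of ND-24, also of complex I, and corolla, a synaptonemal complex protein, reached 189. The cell polarity gene par-6 shared a peak of 187 with CG8188. HP1b, a heterochromatin protein 1 paralog, and CG7246 had 94.0, and the lowest value, 58.6, belonged to Nep1, a neprilysin-like peptidase, and Mipp2, where the summit was not between the starts. These pairs were picked after their values were seen. The lists of replicate 1 and replicate 2 both held 26 of the 45 (57.8%), against 68.3% of the divergent autosomal peaks, while for one-directional peaks the shares were 65.4% on the X and 60.7% on the autosomes.

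The one-directional X promoter peaks numbered 162 and included 18 of the 20 strongest members. The highest signal, 1463, lay 44 bp upstream of Ugalt, a Golgi transporter of UDP-galactose, at chrX:2703710-2704054, with 759 in replicate 1 and 697 in replicate 2. The second, 1280 (699 and 611), was assigned to ph-p, a subunit of Polycomb repressive complex 1, from 490 bp upstream of a start and inside an intron. Its window is the first printed above. Another ph-p peak of 678 (386 and 304) lay 458 bp downstream of a different start, and a weak one of 83.9 completed the set. Its tandem paralog ph-d had 86.8 (52.5 and 31.6). The genes ph-p and ph-d are near-identical in parts, and how the authors' processing placed reads that match both was not tested.

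Between these stood lncRNA:CR44619 with 958 (476 and 477), 480 bp upstream of its start, and TRAM, a protein of the translocon at the endoplasmic reticulum, with 685 (386 and 297). Gapdh2, the glycolytic glyceraldehyde-3-phosphate dehydrogenase, had 588 (321 and 269). Atf3, a bZIP transcription factor, had 584 (328 and 249), and asRNA:CR44429 had 538 (303 and 234). MFS10, a membrane transporter of the major facilitator superfamily, had 507 (262 and 244). The peak of elav, the neuronal RNA-binding protein used as a marker of neurons, had 491 (264 and 232) and lay 261 bp upstream of a start. Signals of 404 to 433 belonged to bbx, sgg, CBP, CG15771, CG11151, org-1 and Tsp5D, and dnc had 447 (229 and 218). Each of the 20, which were picked by signal, was in the thresholded list of replicate 1 and of replicate 2, against 63.8% of all 207. Upstream of the nearest start lay 19 of the 20, against 84.1% of all 207.

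Over all 207, the median signal was 141 (quartiles 103 and 221), and the range ran from 58.6 to 1463. The 956 autosomal promoter peaks had a median of 146.5 (quartiles 99.6 and 247), with a highest value of 1408. Signals above the median of all promoter peaks were found for 102 X peaks (49.3%) and 479 autosomal ones (50.1%; Fisher's exact test, adjusted p = 1). Among summits within 200 bp of a start these shares were 40% and 51.5% (-11.5 points, Fisher's exact test, adjusted p = 0.0943). Arm medians were 157 on 2L, 142 on 2R, 146 on 3L and 135 on 3R, so that the X fell inside their range. Divergent X peaks had a median of 137 and one-directional ones of 152, while on the autosomes these were 152 and 140.

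**Figure D2:**
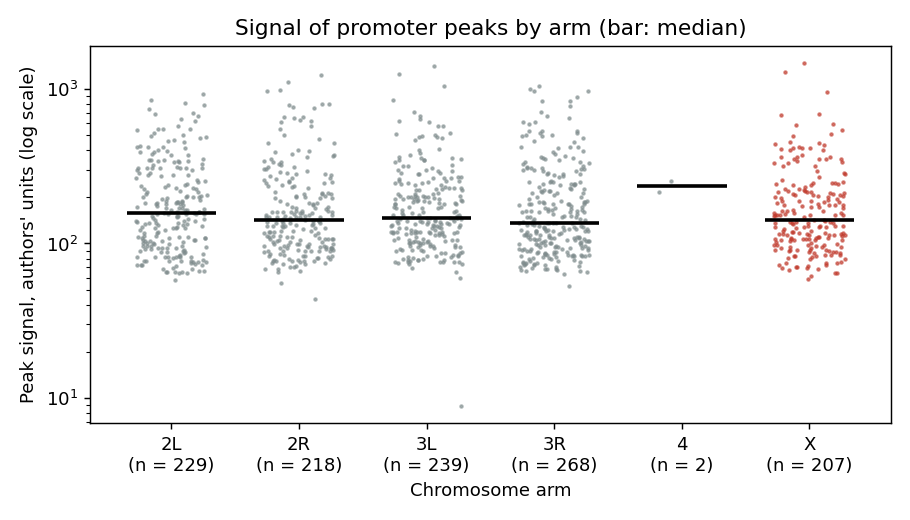
Signal of each promoter peak of the conservative list (y axis, authors' units, log scale) by chromosome arm (x axis), with a bar at the median. The 207 X peaks, in red, have a median of 141, within the 135 to 157 of the large autosomal arms, and chromosome 4 has only 2 peaks.

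The replicates ranked the X promoter peaks alike, but the conservative list had already been filtered for reproducibility between them, which favours such agreement. In the ranked lists, 206 had a summit within 100 bp in replicate 1, 203 in replicate 2 and 202 in both. Spearman's rho between the replicates over those 202 was 0.86, a description across peaks of the same 2 libraries. The median signal was 76.8 in replicate 1 (29.9 to 759) and 67.1 in replicate 2 (30.9 to 697). Of the 207, 169 were in the thresholded list of replicate 1, 146 in that of replicate 2, 132 in both and 24 in neither. The share in both was 63.8% (57.0 to 70.0%) on the X and 63.7% on the autosomes as well as over all arms (Fisher's exact test, adjusted p = 1).

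**Figure D3:**
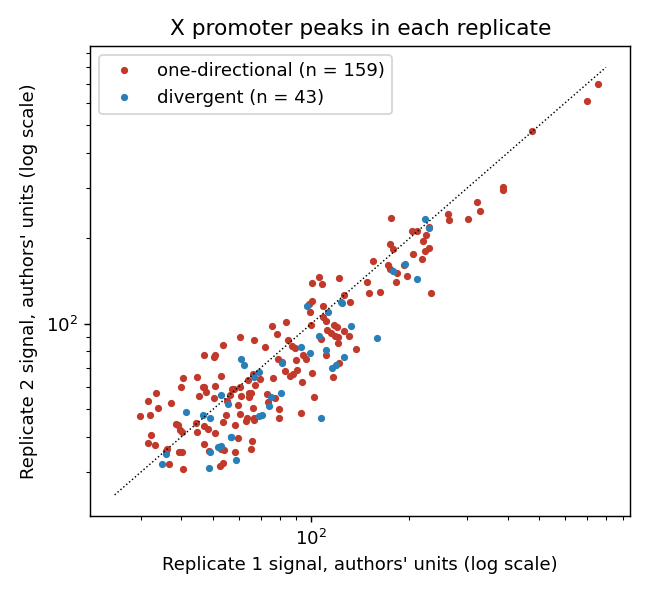
Signal of the 202 X promoter peaks matched in both ranked lists, replicate 1 on the x axis and replicate 2 on the y axis (authors' units, log scales), with divergent peaks in blue, one-directional peaks in red and a dotted line of equal values. Peaks ranked high in 1 replicate tended to rank high in the other (rho 0.86). The lists were scaled separately, and 142 of the points lay on the replicate 1 side of the line. The 43 divergent points reach up to 235 in replicate 2, below the highest one-directional peaks.

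Summits of X promoter peaks lay farther from the nearest start. The median distance was 202 bp on the X (quartiles 123 and 299) and 151 bp on the autosomes, where the large arms ranged from 142 bp on 3L to 162 bp on 2R and the 2 peaks of chromosome 4 had a median of 204 bp. Within 100 bp of a start were 30 X summits (14.5%, 10.3 to 19.9%) and 249 autosomal ones (26.0%, 23.4 to 28.9%; Fisher's exact test, adjusted p = 0.00109). A summit between 2 starts has a nearer start by construction, so the types were also compared apart. Among divergent peaks 22.2% of X and 43.1% of autosomal summits lay within 100 bp (Fisher's exact test, p = 0.00651), and among one-directional peaks 12.3% and 14.9% (p = 0.449). With promoters limited to 200 bp the difference over all promoter peaks was -9.59 points and did not pass (Fisher's exact test, adjusted p = 0.107). On both, most summits were upstream of the start, 84.1% on the X and 83.6% on the autosomes (Fisher's exact test, adjusted p = 1).

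**Figure D4:**
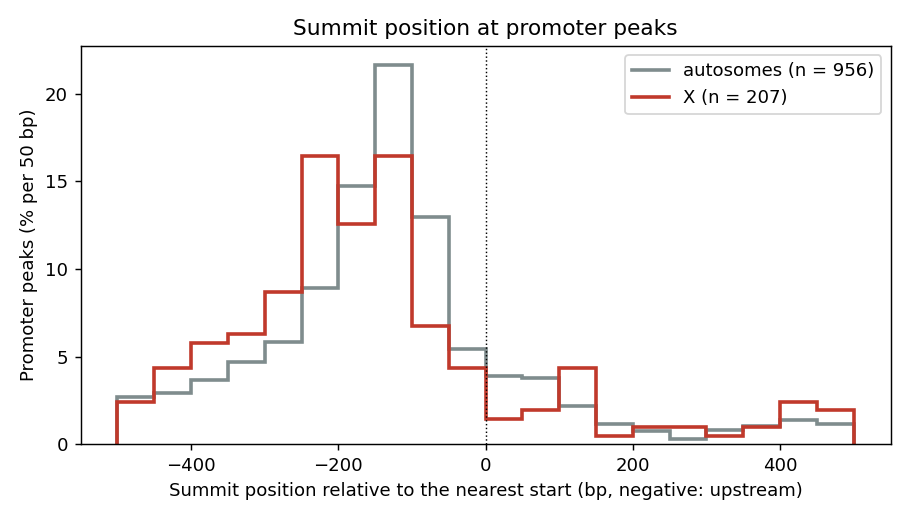
Percent of promoter peaks (y axis) per 50 bp of summit position relative to the nearest start (x axis, bp, negative upstream), for the 207 X peaks in red and the 956 autosomal peaks in grey. The X peaks show 16.4% both at 250 to 200 bp and at 150 to 100 bp upstream, and 6.76% in the last 50 bp before position -50.

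By annotation, 90 X summits were intergenic (43.5%, against 52.8% on the autosomes), 79 lay in an intron (38.2% against 28.3%) and 32 in a 5' UTR (15.5% against 11.0%). Of the others, 5 were in a non-coding exon and 1 in a 3' UTR. None was in a coding exon, against 10 autosomal ones. These shares were not tested. The nearest start belonged to a protein-coding gene for 192 and to another gene for 15, and 189 distinct genes were named in this way. For 54 peaks at least 2 genes had a start within 500 bp. Just inside the limit lay CG8128 at 487 bp (signal 223), a ph-p peak at 490 bp (1280) and lncRNA:CR45618 at 492 bp (162). Just outside lay a second lncRNA:CR44619 peak at 506 bp (497), CG15247 at 508 bp (151) and CG17896 at 516 bp (312).

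Of the nearest genes, 13 were nearest to more than 1 promoter peak. A gene with a start within 500 bp that was not the nearest was not counted here, as IntS6 at the Rtel1 peak. The gene dnc, which encodes a cAMP phosphodiesterase needed for learning, had 4, with signals of 447, 317, 87.8 and 70.5. The last of these was in the thresholded list of neither replicate. Moe, which encodes moesin and links actin to the membrane, had 3 intronic peaks of similar signal, 198, 185 and 172. Ptpmeg2, a protein tyrosine phosphatase, also had 3 intronic peaks, 370, 349 and 217, each 160 to 201 bp upstream of a start. The other genes were ph-p with 3 and CG11151, CG2258, CG4199, CG5004, CHES-1-like, MFS10, Syx4, chas and spri with 2 each.

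Along the chromosome, promoter peaks were spread over its whole length. Bins of 4 Mb, counted from the low-coordinate end, held 41, 40, 44, 37, 32 and 13 of them. The share of protein-coding genes with a promoter peak was 12.8% in the second bin, 9.34 to 9.95% in 4 others, and 7.18% in the last. The second bin also had the highest median signal, 186, against 115 in the fourth. These values were not tested.

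Named X genes were described by 12 lists with 145 distinct genes on the X, of which 20 had a promoter peak (13.8%, against 10.1% of all X genes). The lists were made with results of these data known and were not tested. Of 15 ribosomal protein genes 5 had one, all with low signal and within 61 bp of a start. These were RpS10b at 114 (65.4 and 57.2 in the replicates), RpL17 at 98.1, RpS5a at 91.3, RpL22 at 88.2 and RpS28b at 69.8. Only the RpS10b peak was in both replicates' thresholded lists. Of 14 housekeeping genes Ugalt, Gapdh2 and sqh, the regulatory light chain of nonmuscle myosin, had one, sqh at 213 (121 and 90.2), while Act5C, a cytoplasmic actin, did not.

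Among 14 chromatin genes ph-p, ph-d, Top1 and e(y)2 had a promoter peak. Top1, DNA topoisomerase I, had 140 (93.1 and 48.4). The gene e(y)2, which encodes a small protein of the SAGA and nuclear pore complexes, had 94.9 (58.7 and 33.2). Of 9 genes of dosage compensation and sex determination 1 had one, Sxl, the switch gene of female development, with 108 (67.0 and 46.0) at 456 bp downstream of a start. No peak met the rule at the roX1 and roX2 RNAs and mof, components of the dosage compensation complex, or at sisA, an X-linked signal element.

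In the nervous system lists, elav and dnc were 2 of 12 neuron genes, and Nrg, acj6, futsch and cac had none. None of the 7 proneural and neuroectoderm factors had a promoter peak, which allows a share of up to 42.9%. These include ac, sc, l(1)sc and ase, the genes of the achaete-scute complex. Moe and par-6 were 2 of 11 polarity and adhesion genes. From 16 signalling genes sgg, the fly GSK-3 kinase, was the 1 with a peak (420, with 211 in each replicate), and N, the Notch receptor, had none. Of 22 transcription factors CHES-1-like (216) and peb (75.9) had one, the latter in the thresholded list of neither replicate. The 7 cell cycle, 20 chemosensory receptor and 10 eggshell and yolk genes had none, which allows shares of up to 42.9%, 15% and 30%.

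The DNA under the summits was poor in G+C, and a little less so than on the autosomes. In the 101 bp around the summit the median G+C content was 30.7% for X promoter peaks (quartiles 24.8 and 35.6%) and 28.7% for autosomal ones. A window of the same width 500 bp to the higher coordinate had 44.6% on the X and 46.5% on the autosomes. Windows centred at -166 bp from all protein-coding starts, the median summit position on the X, had 37.6% and 36.6%. They are called start windows here, although they end upstream of the start itself. Below the median of all promoter peaks were 81 X windows (39.1%) and 457 autosomal ones (47.8%; Fisher's exact test, adjusted p = 0.0257), a comparison added after the data were seen. By Fisher's exact test, neither replicate's own list gave a passing difference, with -6.98 points (adjusted p = 0.126) without replicate 1 and -7.63 (adjusted p = 0.062) without replicate 2. It was wider with summits limited to 200 bp (-18.2 points, Fisher's exact test, adjusted p = 0.00313) and with windows of 100 bp each side (-17.8 points, adjusted p = 7.48e-06).

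**Figure D5:**
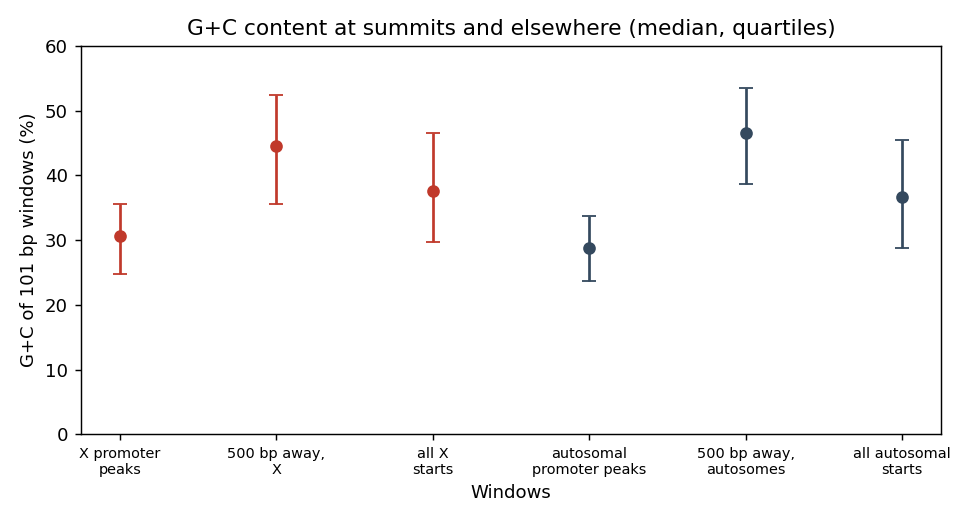
G+C content (y axis, percent) of 101 bp windows on the X (red) and the autosomes (blue), as median with quartiles. The windows lie at promoter peaks, 500 bp away, and at -166 bp from all protein-coding starts. Summit windows are lowest on both, at 30.7% on the X and 28.7% on the autosomes.

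Runs of at least 15 bp of A and T, as in the asRNA:CR44429 window, were found in 43 X windows (20.8%) and in 29.8% of the autosomal ones, against 15.1% and 15.8% of start windows. The median longest run was 10 bp at X summits and 12 bp at autosomal ones, and 7 and 6 bp in the windows 500 bp away. Some members had summits in DNA rich in G+C, with 64.4% at Top1 and 59.4% at RpL22.

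Of 14 motifs, searched in the same windows on either strand, none differed between X and autosomal promoter peaks after adjustment over the motifs, and 0 had an unadjusted p under 0.05. Few matches limit these tests. CAGGTAG, in 1 X and 0 autosomal windows, could not have passed, and neither could AACCGGTT, in 0 of both. For rare motifs the result does not show equal shares. The lowest unadjusted value, 0.0732, belonged to the CA repeat CACACACA, found in 3 X windows (1.45%) and 3 autosomal ones (0.314%). The Snail-type E-box CAGGTG was in 3 X windows (1.45%) and 2.09% of the autosomal ones. It was in 4.83% of X windows 500 bp away and 2.84% of X start windows. The reversed Snail-type control GTGGAC was in 2 X windows (0.966%) and 1.05% of the autosomal ones. Its shares in X windows 500 bp away and in X start windows were 5.31% and 2.02%. TATAAA was in 48 (23.2%) and 27.2%, against 16.5% of X start windows and 11.1% of X windows 500 bp away. CGATA was in 32 (15.5%) and 11.7%, against 16.2% of X start windows. GAGAGAG was in 0 X windows, which allows a share of up to 1.45%, and in 0.523% of the autosomal ones, against 3.24% of X start windows. Of the other motifs, the Twist-type E-box CATATG was in 9 X windows (4.35%) and 3.14% of the autosomal ones, against 3.54% of X start windows. The Ase/Ac-type CAGCTG was in 5 (2.42%) and 2.72%, against 4.27% of X start windows. The Su(H)-type GTGGGAA was in 3 (1.45%) and 0.941%, against 1.31% of X start windows. The DRE TATCGATA, which contains CGATA, was in 2 (0.966%) and 0.628%, against 1.74% of X start windows. The Zelda-type CAGGTAG was in 1 (0.483%), against 0.489% of X start windows. The Myc-type E-box CACGTG, the M1BP-type GGTCACACT and the Grh-type AACCGGTT were in 0 X windows. Their shares were 0.837%, 0.209% and 0% in the autosomal ones and 1.13%, 0.672% and 0.305% in X start windows. A match describes letters in a window and does not show a bound site.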

How the data were processed

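ChIP-seq of wor-eGFP was measured in 2 replicates of 1 group. The deposited peak lists give each peak's signal, the authors' own value per peak, and its summit as an offset in bp (another deposited value, with no scale). The assembly is dm6, per the labels; the sources used here do not give the aligner, peak caller or control library. The main set was the conservative list of both replicates, filtered by the irreproducible discovery rate. Peaks overlapping one of higher signal were dropped, and 19 peaks on other sequences were not used. Starts were those of Ensembl release 115 (BDGP6 annotation 54) without transposable elements, and sequences came from RefSeq Release 6. Coordinates count from 1.

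Shares were compared by two-sided Fisher's exact tests (scipy 1.17.1), adjusted by Benjamini and Hochberg over 7 shares, 14 motifs or 4 added results, with a threshold of 0.05. The 4 added results are the shares of divergent and of one-directional genes, their logistic model (statsmodels 0.14.6, likelihood ratio test) and the G+C comparison. The fits by promoter type, on peaks outside the list and with the distance limit changed but divergent types kept were also added after the data were seen, and their p-values by promoter type are unadjusted. A count of 0 was limited by 3 counts of the total. Replicates shared a peak where lists overlapped by at least 1 bp. Depth is unknown, so precision is that of counting peaks. The code was tested on simulated data, with motifs planted at a higher share of windows than most motifs had here. The members, gene lists and motifs were chosen with earlier results of these data known. Named genes were those of the 20 strongest members and the list genes with a member, plus up to 4 per list without one. Alternatives were limits of 200 and 1000 bp (applied to summits and to divergent types together, and to summits alone), the second list of both replicates, each replicate's own list, no dropping, the stronger part by signal, protein-coding starts only, no chromosome 4 and windows of 25 or 100 bp each side.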

Additional observations from a re-analysis of the deposited data

Results flagged for a closer look

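The contrast between divergent and one-directional genes in the share with a promoter peak differed between the X and the autosomes, with a log2 ratio of odds ratios of -1.32 (n = 13945 genes, likelihood ratio test, adjusted p = 2.76e-08). It stands out because a difference between gene types on 1 chromosome was tested against the same difference on the others. Divergent genes had a peak less often on the X, and one-directional genes more often. Both genes of a pair can share 1 peak, so the p-value is too small, and the comparison was added after the data were seen. With summits alone limited to 200 bp the ratio was -1.19 (n = 13945 genes, likelihood ratio test, adjusted p = 0.000138). It did not pass with gene types also set by 200 bp, at -0.59 (n = 13945 genes, likelihood ratio test, adjusted p = 0.131). These values came from a single list of peaks from 1 group of embryos. Among the ranked peaks outside that list the ratio was 0.41 (n = 13945 genes, likelihood ratio test, adjusted p = 0.0173), opposite in sign. Those peaks had not passed the reproducibility filter of the list.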

How the results depend on the processing

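Values are X minus autosomes in percentage points. The shares of peaks at promoters, at divergent starts and within 100 bp, and both gene shares, kept direction and side of the threshold under the second list of both replicates, each single replicate's list, no dropping, the stronger part by signal, protein-coding starts only and without chromosome 4. With summits limited to 200 bp there were 100 members, and 13 list genes had one. The share of genes with a peak then passed (-1.46, Fisher's exact test, adjusted p = 0.0418), peaks within 100 bp (-9.59) no longer did, and presence in both replicates (-9.34) and upstream position (-0.307) turned sign. Signal was at -11.5 and G+C at -18.2. With divergent starts and genes still taken by 500 bp, divergent peaks (-17.3) and the ratio (-1.19) kept their calls, and one-directional genes (0.817, Fisher's exact test, adjusted p = 0.096) did not. With these types also redefined by 200 bp, divergent peaks (-8.43) and the ratio (-0.59) no longer passed and one-directional genes (-0.941) turned sign. With 1000 bp, peaks at promoters no longer passed (-5.41, Fisher's exact test, adjusted p = 0.055), and gene share (0.106), both replicates (-1.36) and signal (0.893) turned sign.

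Upstream position, never past the threshold, also turned sign with the second list (-0.547), no dropping (-0.234), the stronger part (-0.253) and protein-coding starts (-1.96), as did both replicates with protein-coding starts (-1.62). Leaving out each replicate gave -3.25 to -1.10 for presence in the lists, -1.71 to 2.05 for upstream position, -7.63 to -6.98 for G+C and 13 to 17 for list genes. The stronger part had 123 members, 11 list genes and G+C at -9.22 (Fisher's exact test, adjusted p = 0.0735). G+C passed with 1000 bp (-10.0), the second list (-9.91) and no dropping (-10.3). One-directional peaks within 100 bp gave -2.53. Outside the list, peaks at promoters were at -0.855, divergent peaks at 1.72, divergent genes at 0.370, one-directional genes at -6.03 and the ratio at 0.41. The cause of the other changes was not tested. Unknown depth, an unknown share of X copies, 2 replicates and no control analysed here limit all values.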
